A study of Mus musculus with 15 samples.

Results

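RNA sequencing of cultured cortical neurons with and without *Phf6* was examined in 7 of the 15 libraries of the series. They were selected by genotype and cell type in the labels, as the 4 libraries of *Phf6* lox/Y NesCre T/+ cultures, in which *Phf6* was deleted, and the 3 libraries of *Phf6* +/Y NesCre T/+ cultures, which served as control. All were male foetuses of strain C57BL/6 at E16.5, the cortex was dissected and dissociated, and the cells were grown for 24 hours without treatment. Both genotypes carried the NesCre transgene, which made the transgene common to the groups compared. Nes-cre drives recombination in neural progenitors and their progeny, and cells of other origins in the cultures may keep the intact gene. Litters 4, 5 and 6 each gave 1 control and 1 *Phf6*-deleted culture, whereas litter 7 gave 1 *Phf6*-deleted culture and no control. The protocol in the labels names 2 ways of dissociating the cortex without stating which culture received which.

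*Phf6* lies on the X chromosome and encodes a nuclear protein with a pair of PHD-like zinc fingers. It binds chromatin and has been found with the NuRD chromatin remodelling complex, with the PAF1 elongation complex and in the nucleolus. Inherited mutations cause Börjeson-Forssman-Lehmann syndrome, a disorder with intellectual disability. Cortical neurons shortly after plating are mostly young glutamatergic projection neurons with a minority of GABAergic interneurons. They extend neurites and begin to express synaptic proteins. Few vessel cells remain beside them, whereas part of the progenitors can persist.

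The floxed allele carries loxP sites around exons 4 and 5 of *Phf6*. These exons are shown because they are what the 2 genotypes differ by. In the GENCODE transcript Phf6-201 (GRCm38, plus strand) exon 4 lies at chrX:52931573-52931706 and exon 5 at chrX:52931981-52932024, and both are wholly coding.
exon 4: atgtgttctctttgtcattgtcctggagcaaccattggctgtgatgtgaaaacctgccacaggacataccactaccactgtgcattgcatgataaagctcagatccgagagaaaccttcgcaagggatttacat
exon 5: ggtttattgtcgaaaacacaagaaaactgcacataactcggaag
exon 3 joined to exon 6: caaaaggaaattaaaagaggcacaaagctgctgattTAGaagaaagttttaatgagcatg
Together the exons hold 178 bases, which is not a multiple of 3. The last line gives the final 30 bases of exon 3 and the first 30 bases of exon 6 as they would meet without exons 4 and 5. The capitals mark the first stop in the reading frame, which follows 80 codons of exons 1 to 3 and 2 codons of exon 6, in a coding sequence of 364 codons. Exons 4 and 5 make up 4.09% of the 4350 bases over which *Phf6* reads were counted.

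*Phf6* (chromosome X, 52912214 to 52956961) was read first, since it checks the labels. Levels are given as CPM, read counts scaled so that every culture has the same nominal library size, and are not divided by gene length. The controls of litters 4, 5 and 6 had 245, 215 and 240 CPM, and the *Phf6*-deleted cultures of litters 4, 5, 6 and 7 had 80.8, 56.9, 61.5 and 67.8 CPM. The groups did not overlap, and 28.2% of the control level remained in the fit (log2 fold change -1.82, standard error 0.07, FDR = 5.42e-09, where the FDR is the adjusted p of edgeR's quasi-likelihood F test and the fit accounts for litter). Reads on the deleted and on the remaining exons were counted together and could not be told apart.

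The cell type named in the labels was compared with markers of cortical cells. Over 13 genes of neurofilaments and the neuronal cytoskeleton, summed levels of 13060 to 15880 CPM in the 7 cultures exceeded the 9794 to 11510 CPM of the 8 E15.5 cortices in the series. Markers of radial glia summed to 630 to 946 CPM in the cultures against 2475 to 3024 CPM in the cortices, and those of endothelial and mural cells to 7.52 to 14.6 against 240 to 481 CPM. Red cell, oligodendrocyte precursor and intermediate progenitor markers were also lower in every culture than in every cortex. Lists of neuron subtypes went both ways. Upper-layer markers summed to 2173 to 2580 CPM in the cultures against 1121 to 1450 CPM in the cortices. Deep-layer markers were lower in every culture, at 1080 to 1191 against 1329 to 1949 CPM. So were GABAergic interneuron markers (337 to 536 against 1272 to 1517 CPM) and Cajal-Retzius markers (157 to 407 against 420 to 578 CPM). The libraries held 16858007 to 29842150 counted reads, the *Phf6*-deleted culture of litter 5 being the shallowest. Since the RNA came from whole cultures, fewer cells of a type and less RNA per cell cannot be told apart in any of the results.

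After removal of genes with low counts, 13909 genes were tested with litter and genotype as terms. At an FDR below 0.05, 27 genes were upregulated in the *Phf6*-deleted neurons, 0.194% of those tested, and 11 were downregulated, 0.0791% of those tested and with *Phf6* among them. At an unadjusted p below 0.05 there were 816 upregulated genes (5.87%) and 621 downregulated genes (4.46%). Over all tested genes the fold changes were balanced, with 50.3% above 0. The upregulated genes had log2 fold changes from 0.34 to 2.84 (median 0.57), and the downregulated genes other than *Phf6* fell by 0.38 to 0.58 on the log2 scale (median -0.49). Leaving out a control or a *Phf6*-deleted library of litters 4 to 6 also leaves its partner without a match, so that 2 litters remain for the estimate. Without the litter 5 control 12 genes were upregulated and 4 downregulated, and without its *Phf6*-deleted partner there were 15 and 6. Without the litter 4 control the counts were 70 and 40, and without its partner 73 and 42. The litter 6 libraries moved them most, to 335 and 159 without the control and to 256 and 127 without the *Phf6*-deleted culture, and leaving out litter 7 gave 37 and 13. Of the 38 called genes, 13 kept an FDR below 0.05 without the litter 5 control and 17 without its partner, and the highest FDR came from leaving out that control for 37 of the 38. *Phf6*, *Reln*, *Ttr*, *Sst*, *Nr4a2*, *Peg10*, *Ndnf*, *Vgf*, *Sncb*, *Nptxr*, *Tmeff2*, *Pde1b* and *Gipr* passed in all 7 fits.

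**Figure D1:**
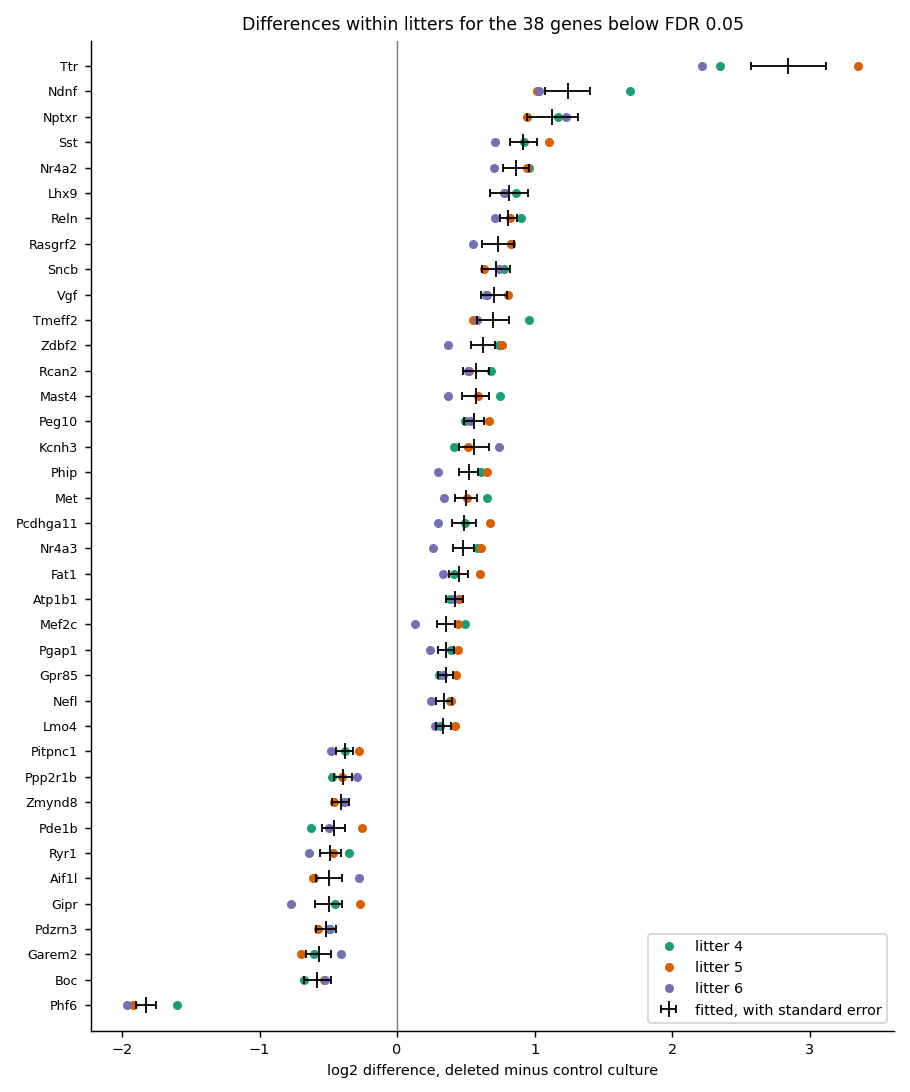
Log2 difference between the *Phf6*-deleted and the control culture of each litter (horizontal axis) for the 38 genes below an FDR of 0.05 (vertical axis). Coloured points are litters 4, 5 and 6, and black marks with bars are the fitted log2 fold change and its standard error. The 3 litters lie on the same side of 0 for every gene, and litter 6 gave the smallest difference for 23 of the 38.

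All 38 genes differed in the same direction in litters 4, 5 and 6, as did 31.6% of the genes tested. This agreement was part of what the test selects. The differences within litters, on log2 CPM with a prior count of 2, had a median size of 0.61 in litter 4, 0.60 in litter 5 and 0.49 in litter 6 for these genes, against 0.14, 0.16 and 0.14 over all genes. For 23 of the 38 genes the smallest difference was that of litter 6. Across the 6954 genes above the median level, the differences of litters 4 and 5 correlated at r = 0.39, those of litters 5 and 6 at r = 0.21 and those of litters 4 and 6 at r = 0.02. These are descriptions over genes, which share libraries and are not independent replicates.

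Litter 7 has a term of its own in the fit, which takes up all of its values, so its library did not set any fold change. It is therefore given beside the others as a further culture, in which litter and genotype cannot be told apart. Of the 27 upregulated genes, 24 lay above all 3 controls in this library, against 28.7% of the genes tested. All 11 downregulated genes lay below all 3 controls in it, against 29.2% of the genes tested. The same 3 controls stand in both comparisons. Counting all 4 *Phf6*-deleted cultures, 19 of the upregulated genes lay above every control, against 3.67% of the genes tested. Of the downregulated genes 10 lay below every control, against 3.62% of those tested. Together these 29 genes had no overlap between genotypes, as did 7.28% of the genes tested. The groups overlapped for *Sst*, *Peg10*, *Fat1*, *Rasgrf2*, *Met*, *Mast4*, *Nefl*, *Mef2c* and *Gipr*.

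**Figure D2:**
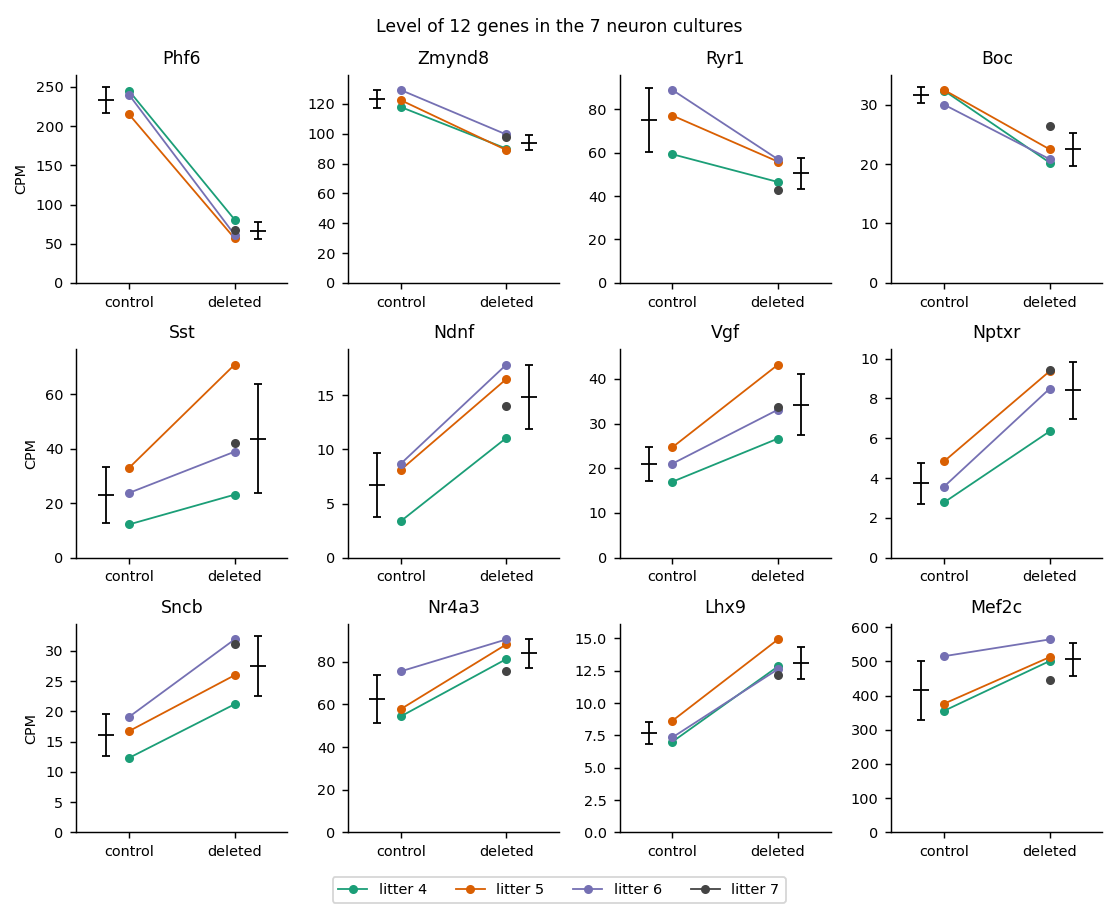
Level of 12 genes in CPM (vertical axes, from 0) in control and *Phf6*-deleted cultures. Points are libraries, lines join the cultures of a litter, and bars give the mean ± SD of each genotype (n = 3 and 4). Lines of the 3 litters run the same way in each panel, and *Sst* levels of litter 5 exceed those of litter 4 in both genotypes.

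Precursors of secreted peptides were among the genes that rose. *Sst* (chromosome 16, 23889573 to 23891342) encodes somatostatin, the neuropeptide of a large class of cortical interneurons. Its controls in litters 4, 5 and 6 were at 12.2, 32.9 and 23.7 CPM, and the *Phf6*-deleted cultures at 23.1, 70.8 and 38.9 CPM, with 42.0 CPM in litter 7. In litters 4, 5 and 6 the *Phf6*-deleted culture exceeded the control of its own litter. The litter 4 *Phf6*-deleted culture nevertheless stayed below the controls of litters 5 and 6. The fitted difference was 1.89-fold (log2 fold change 0.92, standard error 0.10, FDR = 0.000552), and the FDR stayed below 0.05 with any 1 of the 7 libraries left out. *Vgf* (chromosome 5, 137025301 to 137033351) encodes a granin-like precursor that neurons cleave into peptides and release from dense-core vesicles. It rose from 17.0, 24.7 and 21.0 CPM to 26.7, 43.2 and 33.1 CPM in litters 4, 5 and 6, with 33.8 CPM in litter 7. All 4 values lay above all controls (log2 fold change 0.70, standard error 0.09, FDR = 0.004). Of 17 granins, neuropeptides and processing enzymes tested, these 2 rose and none fell, against 0.194% and 0.0791% of all genes. The median log2 fold change of the 17 was 0.09, beside 0.00097 over all genes, and ranged from 0.00357 without the litter 4 control to 0.165 without either culture of litter 5. The next in size were the granin *Scg2* (0.63, FDR = 0.128) and the neuropeptide *Cck* (0.48, FDR = 0.239), which did not pass the test.

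The other markers of GABAergic interneurons did not pass the test. Of 19 markers tested, *Sst* was the only one called, 10 had a positive and 9 a negative difference, and the median was 0.01. The litters were not alike, since 8 of the 19 were higher in the *Phf6*-deleted culture in litters 4 and 5 and 15 were in litter 6, where the median difference was 0.23. In the litter 7 culture 15 of the 19 lay above the mean control, with a median difference of 0.44. *Gad1*, *Gad2*, *Dlx1*, *Dlx2* and *Lhx6* were in the list and none passed. The largest differences after *Sst* were those of *Npas1* (0.50, FDR = 0.209) and *Sp9* (-0.48, FDR = 0.464), transcription factors of interneuron subsets. The summed level of the list was 340 to 499 CPM in the controls and 406 to 547 CPM in the *Phf6*-deleted cultures, and without *Sst* 316 to 486 CPM and 368 to 505 CPM.

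Markers of Cajal-Retzius cells formed a further list with called genes. Reelin, encoded by *Reln*, is an extracellular glycoprotein that guides neurons to their layer, and at this age it is made mainly by Cajal-Retzius cells at the cortical surface. *Reln* was at 82.3, 77.4 and 122 CPM in the controls and at 154, 136, 200 and 298 CPM in the *Phf6*-deleted cultures of litters 4, 5, 6 and 7 (log2 fold change 0.81, standard error 0.06, FDR = 1.4e-05). *Ndnf* (chromosome 6, 65671611 to 65712323), a secreted neurotrophic factor also made by Cajal-Retzius cells, had 3.36, 8.11 and 8.67 CPM in the controls and 11.1 to 17.8 CPM in the 4 *Phf6*-deleted cultures, with a mean of 14.9 ± 2.98 (SD). Neither gene overlapped between genotypes, and *Ndnf* was 2.36-fold higher in the fit (log2 fold change 1.24, standard error 0.16, FDR = 0.00386).

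Of 10 Cajal-Retzius markers, 9 passed the filter on low counts, 2 rose (*Reln* and *Ndnf*) and 9 had a positive difference, with a median log2 fold change of 0.47. Over all genes 0.194% rose and 50.3% had a positive difference. *Trp73*, a p53 family transcription factor that marks these cells, had 3.88, 6.49 and 5.14 CPM in the controls and 8.63, 7.85, 10.6 and 15.54 CPM in the *Phf6*-deleted cultures, with no overlap (0.83, FDR = 0.105). *Lhx1* differed by 0.92 (FDR = 0.392) at 2.54 CPM or less. *Cacna2d2* and *Ebf3* had differences near 0, at 0.05 and 0.02, and *Ebf2* had under 0.4 CPM in every library. The summed level of the list was 155 to 191 CPM in the controls and 231 to 416 CPM in the *Phf6*-deleted cultures, with *Reln* and *Ndnf* included. Without these 2 genes it was 59.8 to 69.5 CPM against 78.3 to 104 CPM, and the part of this shift in the difference of *Reln* was not tested. Receptors and transducers of reelin were tested as a list of 14 that includes *Reln*, which was the only one called. The median was 0.01, and apart from *Reln* the largest difference was 0.08, for the Cdk5 activator gene *Cdk5r1* (FDR = 0.647).

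Nr4a orphan nuclear receptors are transcribed within minutes of neuronal activity or cyclic AMP, together with other immediate-early genes. *Nr4a3* (chromosome 4, 48045078 to 48086447) had 54.4, 57.8 and 75.5 CPM in the controls and 81.3, 88.2 and 90.5 CPM in the *Phf6*-deleted cultures of the same litters, with 75.7 CPM in litter 7. The lowest *Phf6*-deleted value lay just above the highest control value (log2 fold change 0.48, standard error 0.08, FDR = 0.0148, and 0.189 without the litter 5 control). *Nr4a2* rose by a log2 fold change of 0.87 (FDR = 0.000596), from 16.02 to 27.5 CPM in the controls to 31.2 to 44.7 CPM, without overlap. *Nr4a1* differed by 0.21 (FDR = 0.708).

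Of 19 Nr4a receptors and immediate-early genes, 17 were tested, and *Egr3* and *Egr4* were below the filter. Only *Nr4a2* and *Nr4a3* passed the FDR with edgeR, against 3 genes with DESeq2, 4 with library totals and 5 with no low-count filter. Of the 17 genes 16 had a positive difference, and 11 had an unadjusted p below 0.05 with a positive difference, against 5.87% of all genes. The median log2 fold change was 0.37. The largest differences were those of *Fosb* (1.28, FDR = 0.476), of the neuronal activity factor *Npas4* (0.97, FDR = 0.172) and of *Bdnf*, which encodes brain-derived neurotrophic factor (0.89, FDR = 0.0928). *Bdnf* had 3.74, 6.93 and 5.77 CPM in the controls and 10.5, 11, 8.26 and 9.19 CPM in the *Phf6*-deleted cultures, which all lay above the controls. *Arc* was the exception, with a difference of -0.16. The median of the list was 0.58 in litter 4, 0.38 in litter 5 and 0.21 in litter 6, and with single libraries left out it ranged from 0.31 to 0.42, with 1 to 6 members called. The plot of summed levels gives this list beside 5 others.

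**Figure D3:**
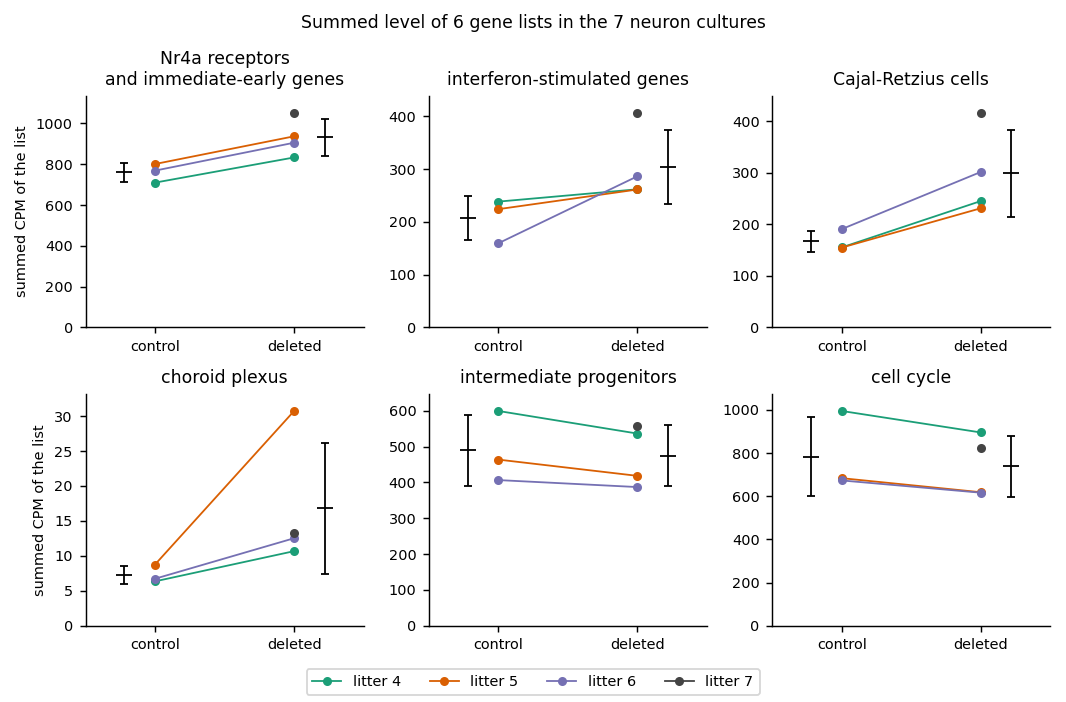
Summed CPM of 6 gene lists (vertical axes, from 0) in control and *Phf6*-deleted cultures. Points are libraries, lines join the cultures of a litter, and bars give the mean ± SD (n = 3 and 4). Immediate-early genes, interferon-stimulated genes and Cajal-Retzius markers are higher in the *Phf6*-deleted culture of each litter, and intermediate progenitor and cell cycle genes are lower, while their level differs among litters.

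Upstream sequence is shown for *Nr4a2*, *Nr4a3* and *Sst* because they moved together and are textbook targets of the cyclic AMP response element-binding protein. They were chosen after their values were seen. The 250 bases before the start were searched on both strands for the response element TGACGTCA and for its half-site TGACG, overlapping matches counted, and the matches are in capitals.
Nr4a2 upstream (chr2:57124004-57124253, minus strand): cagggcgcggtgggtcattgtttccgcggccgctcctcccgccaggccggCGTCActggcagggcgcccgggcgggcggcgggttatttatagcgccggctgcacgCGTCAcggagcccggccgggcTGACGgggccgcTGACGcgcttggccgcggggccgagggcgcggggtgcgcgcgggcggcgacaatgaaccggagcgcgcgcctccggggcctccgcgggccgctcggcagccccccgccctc
Sst upstream (chr16:23890874-23890903, minus strand): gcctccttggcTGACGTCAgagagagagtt
Nr4a3 upstream (chr4:48045070-48045099, plus strand): agggTGACGtagcgtcccatgtCGTCAcat
The sequences are from RefSeq (GRCm38.p6). For *Sst* and *Nr4a3* a stretch of 30 bases is given, since another annotated start of the gene lies further upstream. The *Sst* stretch therefore lies within the span given for the gene, and the *Nr4a3* stretch partly so. Of the 4 half-sites of *Nr4a3*, 2 are in the stretch shown. *Sst* held the full element 48 bases before its start, and 3.07% of the 11056 tested genes with a promoter in the table did. *Nr4a2* and *Nr4a3* each held 4 half-sites, which 0.353% of those genes reached, and no full element. Since the 3 genes were picked as known targets that had risen, these shares are given for scale and support nothing. Of the 38 called genes, 27 were in the table, of which 8 held at least 1 half-site, against 30.3% of all. A match is a description of the letters and not a measured site of binding.

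*Nptxr*, *Sncb*, *Atp1b1*, *Kcnh3* and *Gpr85*, which act at synapses or neuronal membranes, were also upregulated. *Nptxr* (chromosome 15, 79786351 to 79804709) encodes the neuronal pentraxin receptor, which with other pentraxins gathers AMPA receptors at synapses. It had 2.77, 4.84 and 3.57 CPM in the controls and 6.34, 9.37, 8.49 and 9.43 CPM in the *Phf6*-deleted cultures of litters 4, 5, 6 and 7. The groups were apart, at 2.19-fold in the fit (log2 fold change 1.13, standard error 0.19, FDR = 0.0148). *Sncb* (chromosome 13, 54758860 to 54766622), encoding the presynaptic protein beta-synuclein, had 12.3, 16.7 and 19.1 CPM against 21.2, 26.0, 31.9 and 31.1 CPM. Again no value was shared between the ranges (0.72, standard error 0.10, FDR = 0.00572). *Atp1b1*, for the beta 1 subunit of the sodium-potassium pump, rose from 94.96, 104 and 111 CPM to 124, 142, 148 and 120 CPM (0.42, standard error 0.06, FDR = 0.00572). *Kcnh3*, a voltage-gated potassium channel of forebrain neurons, rose from a mean of 17.7 ± 1.39 CPM (SD, n = 3) to 26.6 ± 3.47 CPM (SD, n = 4), with an FDR of 0.0437. *Gpr85*, an orphan G protein-coupled receptor of neurons, rose from 265 ± 10.2 to 331 ± 18.9 CPM (FDR = 0.0114). Without the litter 5 control, the FDR was 0.0936 for *Atp1b1*, 0.182 for *Kcnh3* and 0.193 for *Gpr85*, and it remained below 0.05 for *Nptxr* (0.0457) and *Sncb* (0.0343).

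In the lists to which these genes belong few other members were called. Over all genes 0.194% rose, 0.0791% fell and 50.3% had a positive difference. Of 8 sodium-potassium pump subunits and synucleins tested, 2 rose and none fell (median 0.20). Of 22 voltage-gated potassium channel genes, *Kcnh3* was called, and 15 had a positive difference (median 0.08). Among 21 genes of the synaptic vesicle machinery none was called, and 17 had a positive difference with a median of 0.09. Of 13 genes of neurofilaments and the neuronal cytoskeleton, 10 had a positive difference (median 0.12), and *Nefl*, for the neurofilament light chain, was called (0.34, FDR = 0.0202, and 0.297 without the litter 5 control).

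Receptors for the main transmitters did not pass the test. Of 12 GABA-A receptor subunit genes, 11 had a positive difference, against 50.3% of all genes. EdgeR called none of the 12, and their median log2 fold change was 0.35. DESeq2, library totals and all gene types kept each called 1 subunit, and no low-count filter gave 2. The median was 0.25 in litter 4, 0.24 in litter 5 and 0.06 in litter 6, and 0 to 4 subunits were called when single libraries were left out. The median of the fitted values was 0.22 without the litter 4 control and 0.23 without that of litter 5. Of the 12 subunits 7 lay above the mean control in litter 7, against 48.7% of all genes. The summed level was 536 to 695 CPM in the controls and 558 to 681 CPM in the *Phf6*-deleted cultures, which overlapped. *Gabra5*, the subunit of extrasynaptic receptors, had 19.9, 23.7 and 30.0 CPM in the controls and 28.9, 37.8, 36.3 and 29.2 CPM in the *Phf6*-deleted cultures (0.49, FDR = 0.0624). In this gene the litter 7 culture lay within the range of the controls. The largest difference of the list, that of *Gabrd* (2.07, FDR = 0.209), was found at 1.45 CPM or less in every library. Of 18 ionotropic glutamate receptor genes none was called and 13 had a positive difference (median 0.13).

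**Figure D4:**
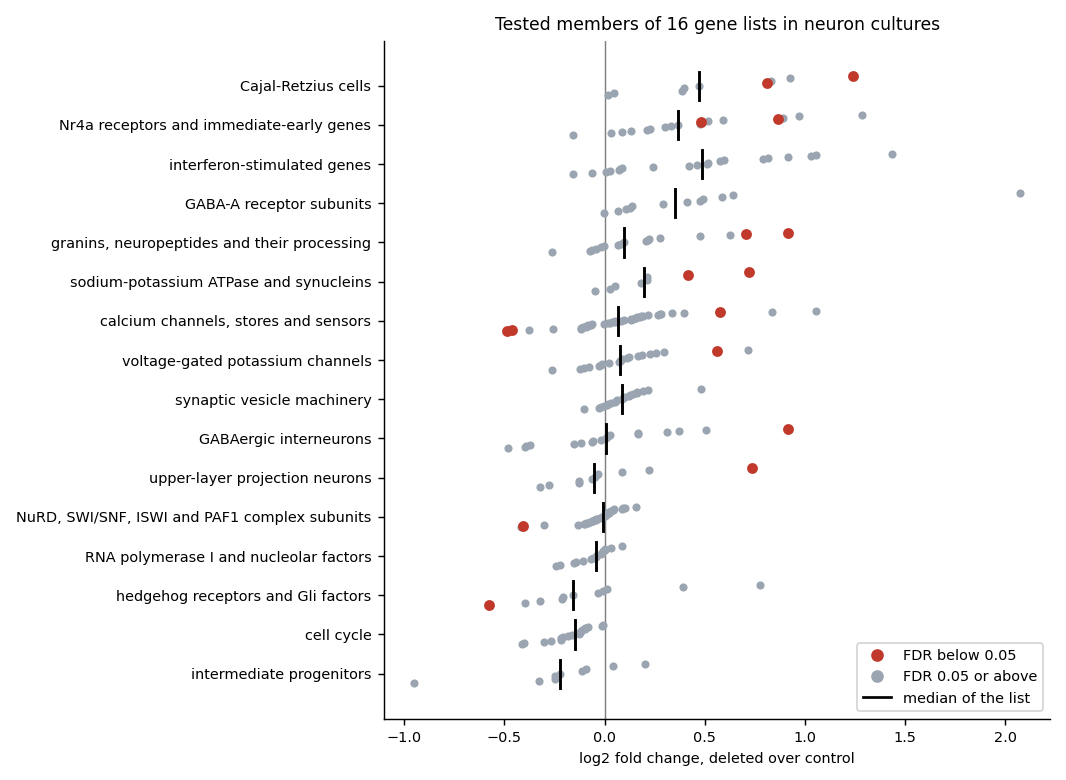
Log2 fold change of *Phf6*-deleted over control cultures (horizontal axis) for the tested members of 16 gene lists (vertical axis). Each point is a gene, red points have an FDR below 0.05, and black bars are list medians. The medians run from 0.48 for interferon-stimulated genes to -0.22 for intermediate progenitor markers, and most members of each list are grey.

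Calcium signalling genes changed in both directions. *Ryr1* (chromosome 7, 29003340 to 29125179) encodes a ryanodine receptor, a channel that releases calcium from the endoplasmic reticulum. It had 59.2, 77.1 and 88.8 CPM in the controls and 46.5, 55.8, 56.9 and 42.6 CPM in the *Phf6*-deleted cultures. All 4 lay below the lowest control (log2 fold change -0.49, standard error 0.08, FDR = 0.0126). *Pde1b*, a phosphodiesterase activated by calcium and calmodulin, had 64.3, 61.3 and 70.0 CPM against 41.5, 51.4, 49.7 and 45.6 CPM, likewise without overlap (-0.46, standard error 0.08, FDR = 0.0262). *Rcan2*, a regulator of the calcium-dependent phosphatase calcineurin, rose from 22.6 ± 3.42 to 32.8 ± 3.11 CPM (0.58, standard error 0.09, FDR = 0.0148). Without the litter 5 control the FDR was 0.0936 for *Ryr1*, 0.0836 for *Rcan2* and 0.0457 for *Pde1b*. These were the 3 called genes among 40 calcium channels, stores and sensors tested, which had a median of 0.07. Of the 40 genes 1 rose and 2 fell, against 0.194% and 0.0791% of all genes. *Vsnl1*, for the calcium sensor visinin-like protein 1, had the largest difference of an uncalled member above 1 CPM (0.83, FDR = 0.0549), and *Cacna1g*, a T-type channel, differed by -0.38 (FDR = 0.0944). *Rasgrf2*, an exchange factor that couples calcium to Ras and also marks upper cortical layers, rose within each litter from 8.64, 12.9 and 18.9 CPM to 15.4, 23.1 and 27.8 CPM. At 13.0 CPM the litter 7 culture stood near the middle of the controls (0.73, standard error 0.12, FDR = 0.0148, and 0.104 without the litter 5 control). Of 10 upper-layer markers *Rasgrf2* was the only one called, and 3 had a positive difference (median -0.06).

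Other signalling genes among the 38 fell in 6 cases. *Boc* (chromosome 16, 44485045 to 44558870), for a surface co-receptor of hedgehog ligands, had 32.4, 32.5 and 30.0 CPM in the controls and 20.2, 22.5, 20.8 and 26.4 CPM in the *Phf6*-deleted cultures. The groups did not overlap, and the level was 33.1% lower in the fit (FDR = 0.0148). In the list of 11 hedgehog receptors and Gli factors *Boc* was the only one called, and 8 had a negative difference, with a median of -0.16. *Gli3*, a transcription factor of the pathway, differed by -0.40 (FDR = 0.158). *Ppp2r1b*, a scaffold subunit of protein phosphatase 2A, *Pitpnc1*, a phosphatidylinositol transfer protein, and *Garem2*, an adaptor of receptor tyrosine kinases to Erk, had log2 fold changes of -0.39, -0.38 and -0.57. *Gipr*, the receptor for the incretin GIP, differed by -0.50 with an FDR of 0.0437, and its litter 5 *Phf6*-deleted culture, at 49.97 CPM, lay above the litter 4 control at 42.0 CPM. *Aif1l*, for an actin-binding protein related to the microglial marker *Aif1*, differed by -0.50 (FDR = 0.0448) and kept an FDR below 0.05 in 4 of the 7 fits that left out a library. The FDR without the litter 5 control was 0.0936 for *Boc*, 0.182 for *Ppp2r1b*, 0.0753 for *Pitpnc1*, 0.136 for *Garem2* and 0.334 for *Aif1l*. *Aif1* itself was under 1 CPM in every library.

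Surface and signalling genes that rose included *Met*, the receptor of hepatocyte growth factor, which had 35.3, 36.7 and 55.4 CPM in the controls and 55.5, 52.3, 70.2 and 40.0 CPM in the *Phf6*-deleted cultures (0.50, FDR = 0.0148). In litter 7 it was within the control range, whereas the other 3 cultures exceeded their own controls. *Fat1*, a giant atypical cadherin, rose from 89.7, 51.1 and 82.6 CPM to 120, 77.8, 104 and 145 CPM (0.45, FDR = 0.0115), and the *Phf6*-deleted culture of litter 5 lay below the controls of litters 4 and 6. *Tmeff2*, a transmembrane protein with follistatin-like domains, had 15.0 ± 2.88 CPM (SD, n = 3) against 23.5 ± 1.497 CPM (SD, n = 4) and no overlap (0.70, FDR = 0.0148). *Mast4*, a microtubule-associated kinase, had a log2 fold change of 0.57 (FDR = 0.0148). *Pcdhga11*, a gamma-protocadherin, had one of 0.49 (FDR = 0.0239), but the genes of its cluster share their constant exons, so reads could be split among them and the value is uncertain. Leaving out the litter 5 control gave an FDR of 0.115 for *Met*, 0.173 for *Fat1*, 0.116 for *Mast4* and 0.297 for *Pcdhga11*. Also called were *Pdzrn3*, a ubiquitin ligase with PDZ domains (-0.52, FDR = 0.00561), *Pgap1*, a remodelling enzyme of membrane lipid anchors (0.36, FDR = 0.0148), and the imprinted genes *Zdbf2* (0.62, FDR = 0.004) and *Peg10* (0.56, FDR = 0.00326). Without the litter 5 control the FDR was 0.079 for *Pdzrn3*, 0.274 for *Pgap1* and 0.0544 for *Zdbf2*. Of 32 imprinted genes tested these 2 rose and none fell, against 0.194% and 0.0791% of all genes, and the median was 0.01.

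Transcription and chromatin genes were represented by *Zmynd8*, *Lmo4*, *Mef2c* and *Lhx9*. *Zmynd8* (chromosome 2, 165784152 to 165898981) encodes a reader of acetylated and methylated histones that associates with NuRD. It had 118, 122 and 129 CPM in the controls and 90.0, 89.1, 99.5 and 97.7 CPM in the *Phf6*-deleted cultures. It fell by 0.41 on the log2 scale, or 24.7%, without overlap (standard error 0.06, FDR = 0.00943, and 0.136 without the litter 5 control). Of 35 subunits of NuRD, SWI/SNF, ISWI and PAF1 complexes tested, it was the only one called. The median was -0.01, and 16 had a positive difference. *Baz1a*, of an ISWI complex, differed by slightly more, at -0.42, without passing the test (FDR = 0.136), and *Hdac1*, a deacetylase of NuRD, differed by -0.30 (FDR = 0.383).

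*Lmo4*, a LIM-only cofactor of cortical neurons, rose from 225 ± 8.28 to 281 ± 8.51 CPM, with a narrow spread in both genotypes (0.34, FDR = 0.0148). *Mef2c*, an activity-dependent factor of projection neurons, had 355, 376 and 515 CPM in the controls and 501, 512, 564 and 446 CPM in the *Phf6*-deleted cultures (0.36, FDR = 0.0382). The litter 6 control was higher than 3 of the 4 *Phf6*-deleted cultures, and the difference within litter 6 was 0.13. *Lhx9*, a LIM homeobox factor of diencephalic and early cortical neurons, had 7.01, 8.63 and 7.34 CPM against 12.8, 14.9, 12.6 and 12.1 CPM, with no overlap (0.81, standard error 0.14, FDR = 0.0173). Of 12 diencephalic markers 6 were tested and *Lhx9* was the only one called, whereas 2 were with limma-trend, DESeq2, RLE size factors, library totals, no low-count filter or all gene types kept. *Barhl2* differed by 1.09 (FDR = 0.366) at 1.77 CPM or less, and *Prox1* by 0.62 (FDR = 0.0518), while *Tcf7l2*, which defines the thalamus, differed by -0.01 at 2.48 CPM or less. The summed level of the list was 27.5 to 34.5 CPM in the controls and 39.7 to 49.7 CPM in the *Phf6*-deleted cultures, and without *Lhx9* it was 19.9 to 27.5 CPM and 25.2 to 36.9 CPM, which overlapped. Of the 5 other tested members 2 had a positive difference, and their median was -0.01. Of 16 RNA polymerase I and nucleolar genes, 14 had a negative difference (median -0.04), and none was called. *Phip*, a bromodomain protein, rose by 0.52 (FDR = 0.004), and its relatives *Brwd3* and *Brwd1* differed by 0.27 (FDR = 0.262) and -0.02. Leaving out the litter 5 control, the FDR was 0.297 for *Lmo4*, 0.414 for *Mef2c*, 0.103 for *Lhx9* and 0.0623 for *Phip*.

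Progenitor and proliferation genes had mostly negative differences in the fit, and none passed edgeR's test. All 18 cell cycle genes had a negative difference, 7 of them with an unadjusted p below 0.05, against 4.46% of all genes, and the median was -0.15. The largest were *Ccnb2* (-0.41, FDR = 0.338) and *Birc5* (-0.40, FDR = 0.421). In litters 4, 5 and 6 the median was -0.17, -0.19 and -0.10. The summed level was 673 to 995 CPM in the controls and 616 to 895 CPM in the *Phf6*-deleted cultures, and the litter 4 cultures were the highest of each genotype. Of 9 intermediate progenitor markers 7 had a negative difference (median -0.22), among them *Eomes* (-0.25, FDR = 0.22) and *Neurog2* (-0.25, FDR = 0.24). Of 14 radial glia markers 10 had a negative difference (median -0.09), the largest with appreciable counts being that of *Nes* (-0.29, FDR = 0.0893). The litter 7 culture, which does not enter these differences, did not share the direction. In it 11 of 14 radial glia and 6 of 9 intermediate progenitor markers lay above the mean control, with median differences of 0.08 and 0.28, and cell cycle genes had a median of -0.02. With no low-count filter 1 intermediate progenitor and 2 radial glia markers were downregulated, as was 1 radial glia marker with library totals. Leaving out a litter 6 culture gave 2 downregulated markers in each of these lists, with intermediate progenitor medians of -0.30. Leaving out a litter 4 culture moved that median to -0.12. Without the litter term the medians of intermediate progenitor, radial glia and cell cycle genes were -0.10, -0.02 and -0.09. With the replicate number in place of litter they were 0.03, 0.02 and -0.02. *Nes* is also the gene whose control elements drive the Cre transgene in both genotypes.

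Interferon-stimulated genes had mostly positive differences, and edgeR called none, whereas 1 was called with limma-trend, 1 with library totals and 4 with no low-count filter. Of 23 listed, 20 were tested and 18 had a positive difference, against 50.3% of all genes. With a positive difference 7 had an unadjusted p below 0.05, against 5.87% of all genes, and the list median was 0.48. The median was 0.11 in litter 4, 0.47 in litter 5 and 1.06 in litter 6, a wider spread than in the lists described so far. Without the litter 6 control the median of the fitted values was 0.15 with 2 members called, and without the litter 4 control it was 0.73 with 4 called. *Usp18*, which removes the ubiquitin-like protein ISG15, had 6.00, 2.62 and 1.25 CPM in the controls and 8.49, 9.91, 6.08 and 19.4 CPM in the *Phf6*-deleted cultures. The groups did not overlap, and the difference of 1.43 on the log2 scale had an FDR of 0.0549 and a standard error of 0.28. For this gene the FDR was 0.0239 with limma-trend, 0.196 with DESeq2 and 0.627 without the litter 5 control. *Oasl2*, an interferon-induced antiviral gene, had 16.7, 10.3 and 5.23 CPM against 19.9, 17.5, 25.3 and 42.2 CPM (1.03, FDR = 0.606). The summed level was 160 to 239 CPM in the controls and 262 to 407 CPM in the *Phf6*-deleted cultures, with the highest in litter 7 and the lowest in the control of litter 6.

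Markers of choroid plexus, vessels, meninges, microglia and red cells were low in all 7 cultures. *Ttr*, the transthyretin gene of the choroid plexus, had 0.38, 2.00 and 1.203 CPM in the controls and 2.29, 21.2, 5.90 and 5.69 CPM in the *Phf6*-deleted cultures (log2 fold change 2.84, standard error 0.27, FDR = 0.000188). Its highest value stood in litter 5. Of the 10 choroid plexus markers 5 were tested, and *Ttr* was the only one called. *Folr1*, *Kl*, *Clic6*, *Kcnj13* and *Prlr* stayed under 0.8 CPM in every library, and the list summed to 6.34 to 8.76 CPM in the controls and 10.7 to 30.7 CPM in the *Phf6*-deleted cultures, with *Ttr* included. Without it the list summed to 5.52 to 6.75 CPM and 6.62 to 9.54 CPM, which overlapped. Endothelial and mural markers summed to 7.36 to 9.87 against 10.0 to 14.6 CPM, meningeal markers to 3.78 to 6.80 against 6.17 to 7.98 CPM, and microglial markers to 24.5 to 31.6 against 21.2 to 30.8 CPM. None of these lists, nor that of red cells, held a called gene.

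Differences in the neuron cultures were set beside those in the E15.5 cortices of the series, which were *Phf6* -/Y against *Phf6* +/Y and carried no Nes-cre. Culture, age, way of deletion and Cre in the controls thus differ at once, so the cause of a differing effect cannot be told apart. The genotype effect in neurons minus that in cortex was tested as an interaction over 15001 genes in all 15 libraries. It passed an FDR of 0.05 for 2 genes, 0.0133% of those tested, and *Sst* was 1 of them. *Sst* was at 48.7 to 67.9 CPM in the 3 control cortices and at 38.4 to 62.7 CPM in the 5 *Phf6*-deleted cortices (log2 fold change -0.26, standard error 0.11, FDR = 0.422). The effect in neurons exceeded it by 1.17 on the log2 scale (interaction FDR = 0.0236). This call did not hold for every choice of libraries. The FDR was below 0.05 in 7 of 15 fits that left out 1 library. It was 0.352 and 0.321 without the control or the *Phf6*-deleted culture of litter 5, 0.101 and 0.1 without those of litter 4, 0.0682 and 0.112 without control cortices 1 and 2, and 0.0673 and 0.0515 without *Phf6*-deleted cortices 1 and 2. Of the other 37 genes called in neurons none had an interaction FDR below 0.05. The lowest was that of *Nr4a2* (0.0548), and 15 had an unadjusted interaction p below 0.05, against 5.19% of the genes tested. The genes were selected by their difference in neurons, which is 1 side of the interaction, so this excess supports nothing. In the cortex fit 31 of the 38 had the same sign as in neurons, and 6 had an FDR below 0.05. These were *Phf6* (1.05e-05), *Peg10* (0.000527), *Zdbf2* (0.0022), *Phip* (0.029), *Pgap1* (0.0375) and *Nefl* (0.0498). Without *Phf6* itself, 30 of 37 had the same sign and 5 were below an FDR of 0.05 in cortex. The shares over all genes are not given here, so these counts have no background to be set against.

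**Figure D5:**
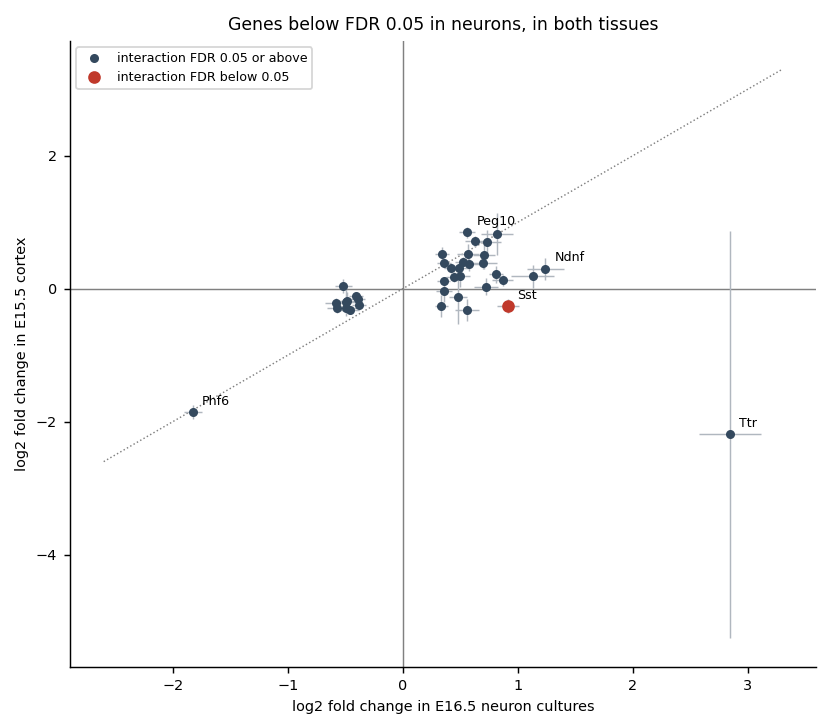
Log2 fold change of *Phf6*-deleted over control in E16.5 neuron cultures (horizontal axis) and in E15.5 cortex (vertical axis) for the 38 genes called in neurons. Bars are standard errors, the dotted line marks equal change, and the red point is *Sst*, at 0.92 in neurons and -0.26 in cortex. The sign is the same in neurons and cortex for 31 of the 38 genes, *Phf6* included, and the share over all genes is not given. *Ttr* has a wide error in cortex.

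More genes differed among litters than between genotypes. In the same fit 697 genes, 5.01% of those tested, differed among the 4 litters at an FDR below 0.05, compared with 38 for genotype. They included 14 of the 27 genes upregulated and 3 of the 11 downregulated with *Phf6* deletion, so the level of these genes varied with litter as well as genotype. Fitting litter lowered the estimated variation between cultures, as the common biological coefficient, from 0.127 to 0.0824.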

How the data were processed

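Paired-end reads of stranded libraries were aligned by the authors to mm10 with the Rsubread aligner and summed per Entrez gene with featureCounts and its RefSeq annotation, without normalization. The strand setting of the counting is not given in the sources used here. The deposited counts of 27179 entries were used, and the files of all 15 samples equal the series table. Entries without an identifier (0.414% to 0.605% of reads in the neuron libraries), pseudogenes (835), ribosomal RNA (35), predicted (1273) and unmatched genes (875) were removed.

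Genes were filtered with filterByExpr, libraries scaled by TMM, and genotype tested with edgeR 4.0.16 (R 4.3.3), using its robust quasi-likelihood F test on a model of litter plus genotype (2 residual degrees of freedom) and Benjamini-Hochberg adjustment. Standard errors are the absolute log2 fold change divided by the square root of F, so they restate the test and are not a separate estimate. Litters come from the labels. Deviations from group means correlated within litters 4, 5 and 6 at 0.291, 0.102 and 0.299, and between cultures of different litters at -0.294 to 0.254, the highest being a pair with the same replicate number. The pairing rests on the labels. Scripts were tested on simulated data. limma-trend 3.58.1 (the study's method), DESeq2 1.42.0, other scalings and filters, and leaving out libraries were the alternatives.

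Named genes were those below an FDR of 0.05, *Usp18* and, per list, at most 4 members with the largest differences, others being chosen after their values were seen. The genes and the 35 lists were chosen with earlier results of these data known. The labels do not say whether each culture came from 1 foetus, while the paper counts 3 control and 4 *Phf6*-deleted foetuses for these libraries. With litter in the fit, p-values measure how far the differences within litters that hold both genotypes disagree. The litter without a control adds nothing to that spread. Some members of the lists are not reported here.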

Additional observations from a re-analysis of the deposited data

Results flagged for a closer look

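The genotype effect on *Sst* differed between neuron cultures and cortex by 1.17 on the log2 scale (interaction FDR = 0.0236), with log2 fold changes of 0.92 in neurons and -0.25 in cortex in the joint fit. *Lhx8*, a LIM homeobox gene of ventral forebrain neurons, named here after its values were seen, differed by -2.31 (interaction FDR = 0.0336). It had 5.24, 0.52 and 0.12 CPM in the control cultures of litters 4, 5 and 6 and 1.87, 0.18, 0 and 1.49 CPM in the *Phf6*-deleted cultures of litters 4, 5, 6 and 7, and was not called in neurons (FDR = 0.258). In cortex it had 10.9 to 23.9 CPM in controls and 19.6 to 28.2 CPM in *Phf6*-deleted samples (FDR = 0.0393). The interaction FDR of *Lhx8* was below 0.05 in 6 of 15 fits that left out 1 library, and reached 0.892 without the litter 4 control culture. None of 39 genes had a *Phf6*-deleted culture standing apart from the other 3 by Dixon's criterion, which chance meets in about 1 of 20 groups.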

How the results depend on the processing

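Under each alternative all 38 genes kept their direction. All 38 kept an FDR below 0.05 with limma-trend, DESeq2, RLE size factors, library totals, no low-count filter or all gene types kept, and 36 did with a minimum of 1 CPM in 3 libraries. Upregulated and downregulated genes numbered 48 and 15 with DESeq2, 46 and 27 with library totals, and 178 and 119 with no low-count filter. With single libraries left out they ranged from 12 to 335 and from 4 to 159. With no low-count filter 1961 genes differed among litters, against 697, and 5 had a genotype effect that differed between neurons and cortex, against 2. With single libraries left out these counts ranged from 488 to 2398 and from 0 to 4.

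Without the pairing of cultures by litter (no replicate block), edgeR called 0 upregulated genes and 1 downregulated gene, *Phf6*, with 496 and 390 at an unadjusted p below 0.05. With the replicate number of the labels as the block, 3 and 2 were called, 2 of them among the 38. Same-numbered cultures share no litter. The cause of these changes was not tested. The test had 2 residual degrees of freedom and 3 litters holding both genotypes.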

Other observations

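Lists outside the comparisons above held few differences. Of 14 genes of cholesterol synthesis and uptake, 12 had a positive difference (median 0.10), and none was called, against 1 with no low-count filter. Of 15 p53 and stress response genes 11 had a positive difference (median 0.10), without a call. Of 19 genes of glycolysis and lactate handling edgeR called none, and *Ldhb*, for a lactate dehydrogenase subunit, came nearest (-0.40, FDR = 0.0518). In this list 1 gene was downregulated with limma-trend, DESeq2, RLE size factors, library totals, no low-count filter or all gene types kept. Eph receptors (14 tested, median 0.05), deep-layer neuron markers (10 tested, median 0.02), astrocyte markers (6 tested, median -0.09) and oligodendrocyte precursor markers (5 tested, median -0.05) held no gene called by edgeR, whereas 1 deep-layer marker was called with no low-count filter.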
